A study of Homo sapiens with 14 samples.

Results

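The subject is how evenly 2 RNA-acylating reagents, AcIm and AcIN3, read the ribosomal RNA (rRNA) of HEK293 cells. HEK293 is a line derived from human embryonic kidney that carries adenovirus 5 DNA, and both groups share it. Cells received AcIm (acetylimidazole) at 100 mM for 10 min or a reagent labelled AcIN3 at 200 mM for 10 min, with 2 samples per group. The rRNA was isolated from total RNA on a gel. The series also holds NAIN3 and 10% DMSO groups and polyadenylated RNA, none of them analysed here. The members are all nucleotides with a score for both reagents, 6867 of the 6939 listed. They comprise 1833 of 1869 in 18S rRNA and 5034 of 5070 in 28S rRNA. The others lie at the extreme ends, where neither reagent has a score: 6 nt before the scored stretch and 30 nt after it in both rRNAs.

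18S rRNA is the scaffold of the small ribosomal subunit, which reads the messenger RNA, and 28S rRNA is that of the large subunit, which forms peptide bonds. Their conserved cores fold into compact domains, and vertebrate rRNAs also carry expansion segments, long insertions at the ribosome surface that are rich in G and C in human 28S. Acylating reagents attach an acyl group to the 2′-hydroxyl of accessible and flexible nucleotides, where reverse transcriptase can stop during library making. The values are the authors' mean R-scores per nucleotide, on a scale from 0 to 1. A high score is read as high reactivity.

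In GRCh38.p14 the annotation lists 5 copies of the 18S gene, each 1869 nt long, RNA18SN1 to RNA18SN3 on chromosome 21, RNA18SN4 on chromosome 22 and RNA18SN5 on a sequence without an assigned chromosome. Of the 28S copies, RNA28SN5 has the 5070 nt of the 28S profile. These genes encode structural RNAs with no coding region, and positions below count from the 5′ end of the mature rRNA. No rRNA sequence was used here, so no base is named from one.

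Replicate values and read depth were not analysed here. No difference below could therefore be tested against replicate error, and every count and correlation is a description of the mean profiles. Because the doses differed, each nucleotide was given a percentile rank within its rRNA and reagent, and the profiles were compared by rank. A rank says where a nucleotide stands among the others, not how much acylation it received. Scores are printed side by side without being read as a difference in potency.

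AcIm and AcIN3 ordered the nucleotides of both rRNAs in nearly the same way, more closely in 18S than in 28S. Over the 1833 nucleotides of 18S Spearman's rho reached 0.95, and over the 5034 of 28S 0.88. The points share cells, library protocol and the position on the rRNA, so they are not independent. The median distance between the ranks of a nucleotide was 5.24 percentile points in 18S and 7.10 points in 28S. In 18S, 76.2% of nucleotides lay under 10 points apart, and in 28S 62.4% did. The largest 1% of distances began at 26.5 points in 18S and at 45.9 points in 28S. Moving the AcIN3 profile by 1 nt in either direction left rho at 0.14 and 0.15 in 18S and at 0.17 and 0.16 in 28S, so the reagents share their register to the nucleotide.

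Median scores were 0.077 for AcIm at 100 mM and 0.118 for AcIN3 at 200 mM in 18S, and 0.0655 for AcIm and 0.1005 for AcIN3 in 28S. The middle 50% of 18S scores ran from 0.0335 to 0.1795 for AcIm and from 0.049 to 0.246 for AcIN3. AcIm had the higher score at 408 nucleotides of 18S (22.3%) and AcIN3 at 1384 (75.5%). In 28S AcIm had the higher score at 1109 (22.0%) and AcIN3 at 3859 (76.7%). Among 28S nucleotides with a mean rank of 20 to 30 the medians were 0.0275 for AcIm and 0.046 for AcIN3. For mean ranks above 90 they were 0.503 and 0.5435. The ratio of AcIm's median to that of AcIN3 was thus nearer 1 above 90 (0.93 against 0.60), though the gap in score was wider. At mean ranks up to 10 this ratio was 0.69 in 28S and 1.39 in 18S.

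**Figure D1:**
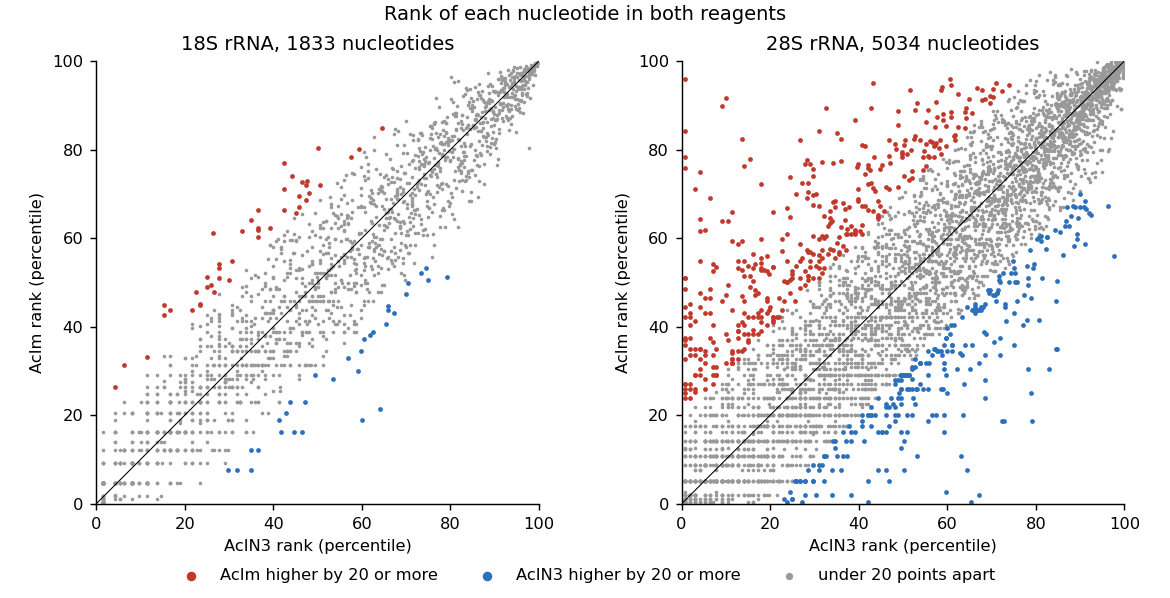
Percentile rank of each nucleotide with AcIN3 (x axis) and AcIm (y axis) in 18S and 28S rRNA. Red points are nucleotides that AcIm ranked at least 20 points higher (44 in 18S, 385 in 28S), blue points those that AcIN3 ranked at least 20 points higher (32 and 268), and the cloud narrows at both ends.

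Nucleotides at least 20 rank points apart were taken as discordant. AcIm ranked higher at 44 nucleotides of 18S, or 2.4% of those scored, and AcIN3 at 32, or 1.75%. In 28S AcIm ranked higher at 385 nucleotides (7.65%) and AcIN3 at 268 (5.32%). At 30 points or more, 3 nucleotides in each direction were left in 18S, while 28S had 163 with AcIm higher and 65 with AcIN3 higher. Which reagent led more often in 28S depended on the measure. At 10 points or more AcIm led at 906 nucleotides and AcIN3 at 985. With scores divided by each reagent's 90th percentile, 0.05 added and a log2 ratio of at least 1 in size, AcIm led at 199 and AcIN3 at 334, and in 18S at 10 and 30.

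Discordance sat in the middle of the reactivity scale. In 28S, 25.2% of the 559 nucleotides with a mean rank of 30 to 40 were discordant, against 2.23% of the 493 with a mean rank of 80 to 90 and 0 of the 451 above 90. In 18S the share peaked at 10.3% for mean ranks of 50 to 60 and was 0 for mean ranks above 80. Ranks are bounded at 0 and 100, so wide differences are possible only away from the ends. In a profile whose scores crowd near 0, a small change in score also moves a middle rank far: in 18S, nucleotides with a mean rank of 40 to 50 had median scores of 0.0695 for AcIm and 0.105 for AcIN3.

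**Figure D2:**
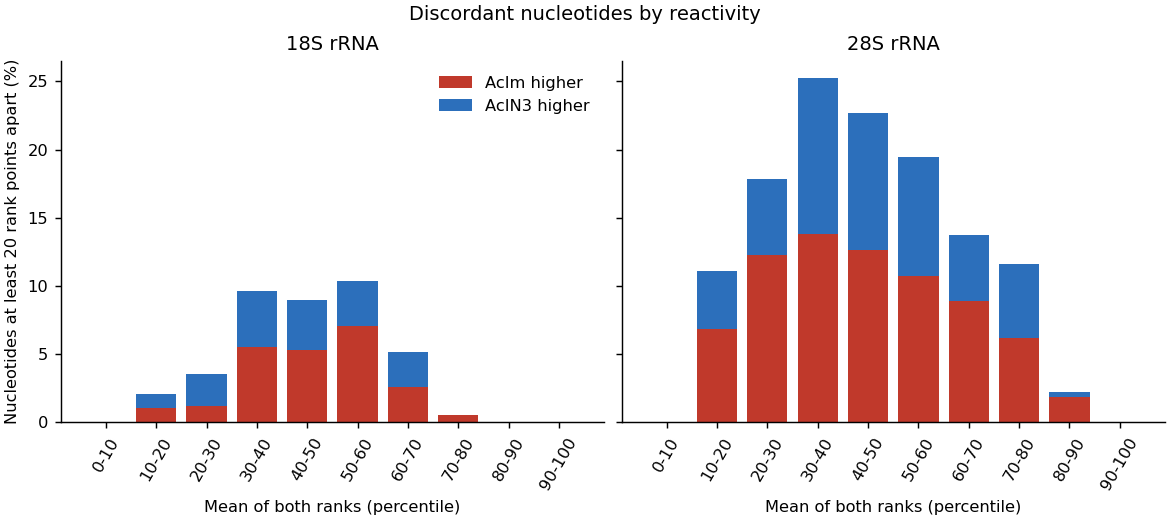
Share of nucleotides at least 20 rank points apart (y axis, %) by the mean of both ranks (x axis, percentile bins of 10 points). Red parts are nucleotides that AcIm ranked higher and blue parts those that AcIN3 ranked higher; the share is highest at mean ranks of 30 to 40 in 28S (25.2%) and is 0 above 90 in both rRNAs.

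The discordant nucleotides were unevenly placed, and in 28S those favouring AcIm lay mostly in expansion segments. The 28S expansion segments ES7L (nt 436 to 1311) and ES27L (nt 2877 to 3598) together held 31.7% of the scored nucleotides and 67.8% of the 385 that AcIm ranked higher. AcIm led by 20 points at 261 of their 1598 nucleotides (16.3%), and AcIN3 at 74 (4.63%). In the 5 core regions of 28S, AcIm led at 41 of 2376 nucleotides (1.73%) and AcIN3 at 131 (5.51%). Over all of 28S those shares were 7.65% and 5.32%. Region borders are approximate, were set from general knowledge of human rRNA domains, and were not checked against a sequence.

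ES27L, a long mobile arm near the exit of the peptide tunnel, had the most AcIm-favouring nucleotides, 134 of 722 (18.6%), with 41 favouring AcIN3 (5.68%). ES7L, the largest expansion segment of the human large subunit, had 127 of 876 (14.5%) and 33 (3.77%). The end of domain II, which includes ES15L, had 39 of 310 (12.6%) and 17 (5.48%). Domain VI with ES39L had 41 of 464 (8.84%) and 26 (5.60%). In domain VI these were concentrated in a short stretch, with 20 at nt 4801 to 4850 and 18 at nt 4851 to 4900. The end of domain II was similar, with 24 of its 39 at nt 2151 to 2200. These 50-nt windows were picked out after the values were seen.

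From domain III to domain V of 28S, outside ES27L, the balance ran the other way. Domain IV (nt 3599 to 3874), which holds much of the contact surface with the small subunit, had 0 of 276 nucleotides favouring AcIm and 18 favouring AcIN3 (6.52%). The peptidyl transferase part of domain V (nt 4161 to 4576), where peptide bonds form, had 2 of 416 (0.481%) and 25 (6.01%). The L1 stalk stretch, which holds the arm that guides spent transfer RNA out, had 3 of 286 (1.05%) and 20 (6.99%). Domain III had 3 of 516 (0.581%) and 28 (5.43%). The share favouring AcIN3 thus stayed between 3.77% and 6.99% in the 10 regions of 28S, whereas the share favouring AcIm ran from 0 to 18.6%.

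The scores also differed by region. In ES27L the medians were 0.0825 for AcIm and 0.102 for AcIN3, and in ES7L 0.0615 and 0.0805. In domain IV they were 0.0575 for AcIm and 0.1195 for AcIN3, and in domain III 0.060 and 0.1095. The ratio of AcIm's median to that of AcIN3 was 0.82 over ES7L and ES27L, 0.58 over the core regions and 0.65 over the regions of mixed kind. AcIm had the higher score, with no allowance for dose, at 42.1% of ES27L and 37.7% of ES7L nucleotides, against 5.80% in domain IV and 9.13% in the peptidyl transferase part.

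In 18S the pattern was smaller in size, and 28 of the 44 nucleotides favouring AcIm lay outside the expansion segment. ES6S (nt 701 to 910), the largest expansion segment of the small subunit, had 16 of 210 nucleotides favouring AcIm (7.62%) and 0 favouring AcIN3, against 2.4% and 1.75% over all of 18S. Its medians were 0.102 for AcIm and 0.114 for AcIN3. When ranks were taken within each region instead, ES6S had 2.38% favouring AcIm and the rest of 18S 2.28%. The adjoining shoulder (nt 411 to 700), which includes a loop of the decoding centre, had 0 of 290 favouring AcIm and 13 favouring AcIN3 (4.48%), with medians of 0.0795 and 0.141. The start of the 5′ domain (nt 7 to 410) held both kinds, 17 favouring AcIm and 14 favouring AcIN3. The platform (nt 911 to 1198) was closest to agreement, with 1 and 0 of 288 and a rho of 0.97 within the region. The head had 4 and 3 of 401, and the P-site and decoding stretch had 6 and 2 of 240.

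Agreement also varied between regions. Within 28S regions rho was lowest in ES27L (0.83), the end of domain II (0.84) and domain VI (0.84), and highest in domain IV (0.96). Within 18S regions it was lowest in the start of the 5′ domain (0.93) and highest in the platform (0.97), and ES6S (0.95) lay between them. When ranks were instead taken within each region, which removes differences in level between regions, expansion segments of 28S had 9.01% of nucleotides favouring AcIm and 8.76% favouring AcIN3. The core regions then had 3.11% and 3.16%. The expansion segments of 28S thus still held larger shares than the core in both directions.

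**Figure D3:**
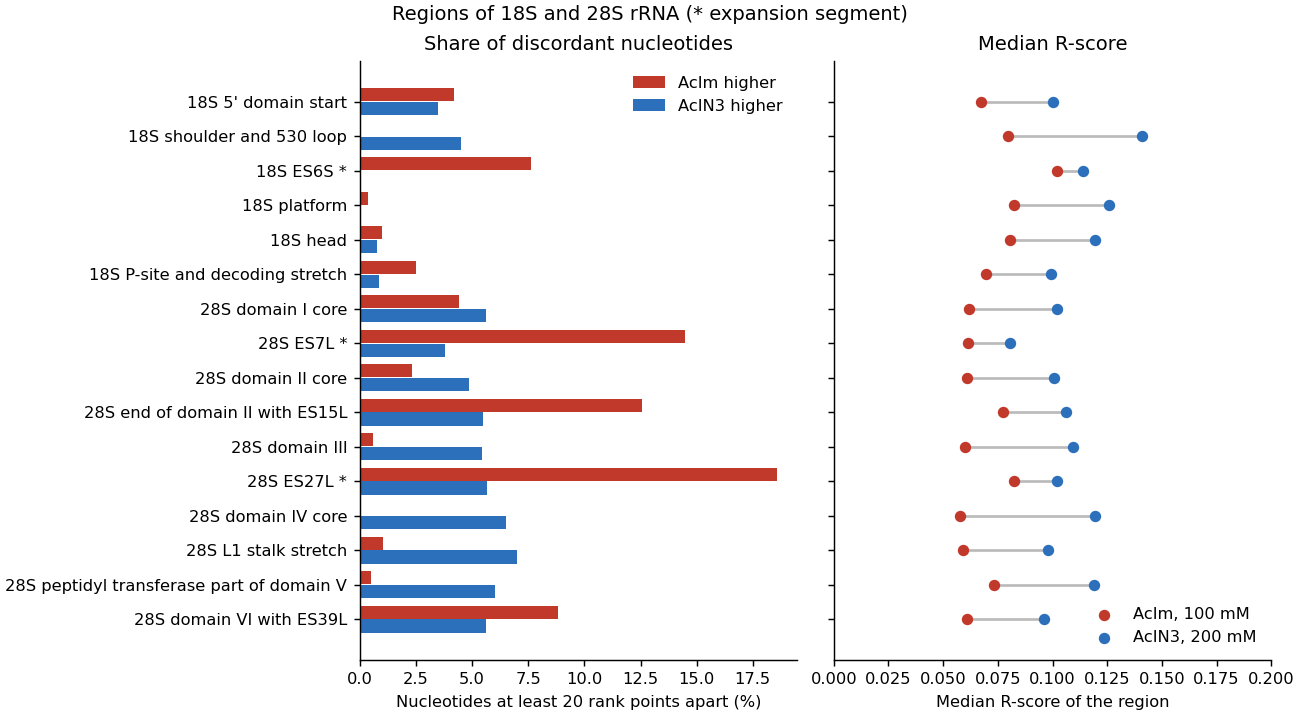
Left, share of nucleotides (x axis, %) that AcIm (red) or AcIN3 (blue) ranked at least 20 points higher in each region of 18S and 28S rRNA. Right, median R-score of each region for AcIm (red) and AcIN3 (blue). ES27L and ES7L reach 18.6% and 14.5% for AcIm, and the medians lie closest together in ES6S, ES7L and ES27L.

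Differences between the reagents came in runs along the chain, in some regions more than in others. The rank difference of a nucleotide correlated with that of its neighbour at 0.36 in 18S and 0.43 in 28S (1832 and 5033 adjacent pairs). At a distance of 10 nt the correlation was still 0.23 in 18S and 0.29 in 28S, and at 100 nt it was -0.04 and 0.03. The ranks themselves correlated less at 10 nt, at 0.07 for AcIm and 0.10 for AcIN3 in 18S, and at 0.06 and 0.09 in 28S. Within regions, rank differences 3 nt apart correlated at 0.52 in domain VI and 0.49 in domain I of 28S. They correlated at 0.02 in domain III, 0.03 in domain IV and 0.04 in the 18S shoulder. In these last regions adjacent nucleotides correlated at 0.22, 0.28 and 0.28. In 28S, 30 stretches of 5 or more consecutive nucleotides each favoured AcIm by at least 10 points, and 13 favoured AcIN3. They held 125 of the 385 discordant nucleotides that favoured AcIm and 45 of the 268 that favoured AcIN3. In 18S there was 1 such stretch in each direction.

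**Figure D4:**
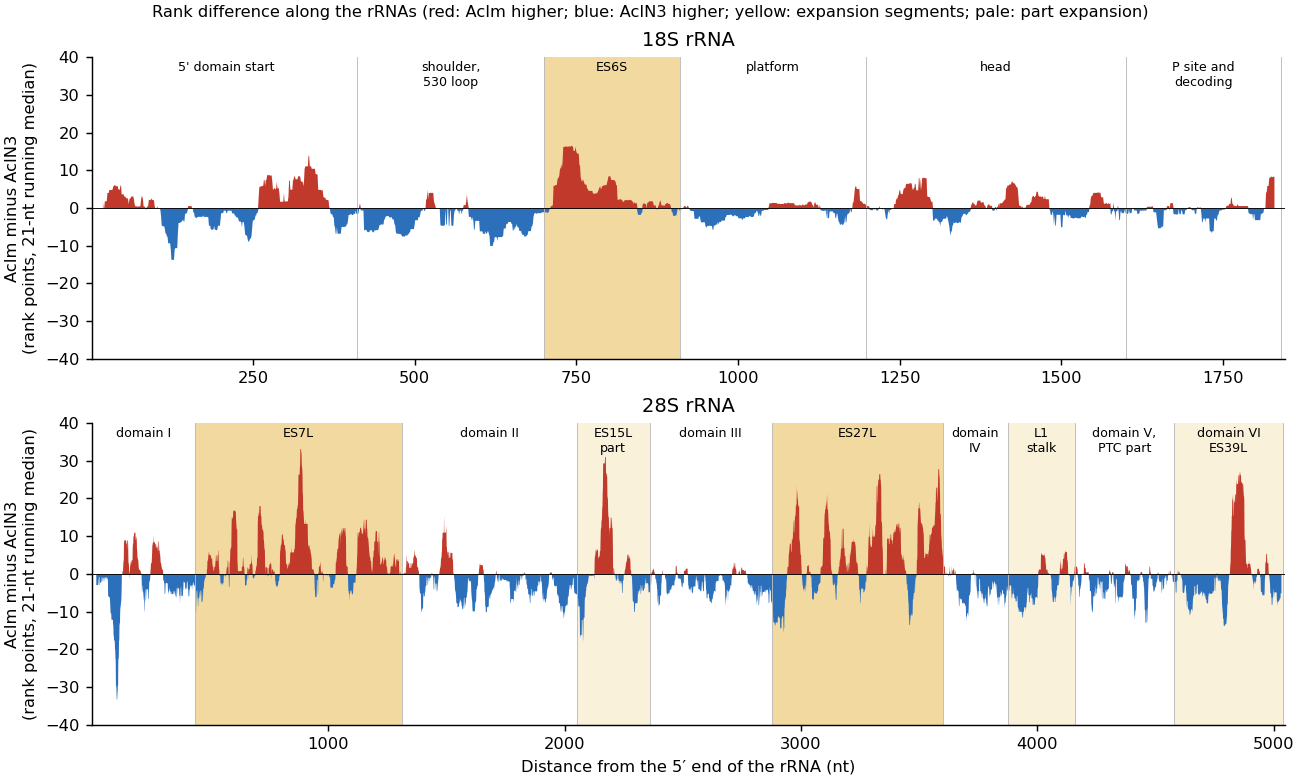
Running median over 21 nt of the AcIm rank minus the AcIN3 rank (y axis, percentile points) against the distance from the 5′ end (x axis, nt). Red marks AcIm ranked higher and blue AcIN3 ranked higher; shaded blocks are expansion segments, pale blocks are part expansion. The curve peaks at 33.2 points in ES7L of 28S and at 16.7 points in ES6S of 18S, and is lowest near the start of 28S at -33.2 points.

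The longest stretch, 20 nt at nt 866 to 885 of ES7L, favoured AcIm throughout, with rank differences from 11.6 to 80.6 points. Its median scores were 0.06675 for AcIm and 0.031 for AcIN3. AcIm peaked every 3 nt in it. The scores at nt 866, 869, 872, 875, 878, 881 and 884 were 0.374, 0.284, 0.342, 0.2335, 0.302, 0.213 and 0.250 for AcIm, and 0.226, 0.179, 0.201, 0.097, 0.020, 0.065 and 0.073 for AcIN3. AcIN3 peaked at the same nucleotides except nt 878, where it stayed at 0.020. Of the nucleotides between the peaks, nt 867 alone exceeded 0.0795 with AcIm (0.340).

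In the profiles as a whole, ranks also correlated more at a distance of 3 nt than at 2 nt or 4 nt. At a distance of 3 nt the ranks correlated at 0.23 for AcIm and 0.24 for AcIN3 in 18S, above the values at 2 nt (0.10 and 0.11). In 28S they correlated at 0.26 and 0.27 at 3 nt, against 0.16 and 0.18 at 2 nt. A repeat at multiples of 3 nt was not clear. At 6 nt the values were 0.05 and 0.08 in 18S, against 0.02 and 0.07 at 5 nt. In 28S they were 0.10 and 0.13 at 6 nt, against 0.08 and 0.13 at 5 nt. At 9 nt they were 0.05 and 0.08 in 18S, below those at 10 nt (0.07 and 0.10). The 3-nt correlation was positive in every region for both reagents and highest at the end of domain II with ES15L, at 0.50 for each. In ES27L it was 0.30 for AcIm and 0.41 for AcIN3, and the 4-nt values there were 0.06 and 0.23. Adjacent nucleotides correlated at 0.16 for each reagent in 18S and at 0.22 for each in 28S. In some regions, such as domain III for AcIm (0.24 at 1 nt and 0.17 at 3 nt), the adjacent value was the higher. The cause of the 3-nt correlation was not tested, and base composition was not examined, since no sequence was used.

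The second longest stretch, 18 nt at nt 97 to 114 of 28S, was the largest block favouring AcIN3. Its median scores were 0.02175 for AcIm and 0.0995 for AcIN3, and its widest difference was at nt 104 (0.0285 for AcIm and 0.234 for AcIN3). None of its nucleotides was in the top 10% of either reagent. It lies just before nt 120 (0.977 for AcIm and 1 for AcIN3) and nt 121 (1 in both). The third, 14 nt at nt 2164 to 2177 near ES15L, favoured AcIm, with medians of 0.09625 for AcIm and 0.04575 for AcIN3 and the widest difference at nt 2170 (0.158 and 0.0275).

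In 18S the longest stretch was 8 nt at nt 338 to 345 of the 5′ domain and favoured AcIm, with medians of 0.0865 for AcIm and 0.0565 for AcIN3. Its most reactive nucleotide, nt 344, scored 0.541 with AcIm and 0.309 with AcIN3. The next, 5 nt at nt 1334 to 1338 of the head, favoured AcIN3, with medians of 0.048 for AcIm and 0.141 for AcIN3. After it came 11 stretches of 4 nt. One of them, nt 623 to 626 of the shoulder, which ends at a nucleotide of the decoding centre, favoured AcIN3 (medians of 0.04125 for AcIm and 0.12725 for AcIN3).

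**Figure D5:**
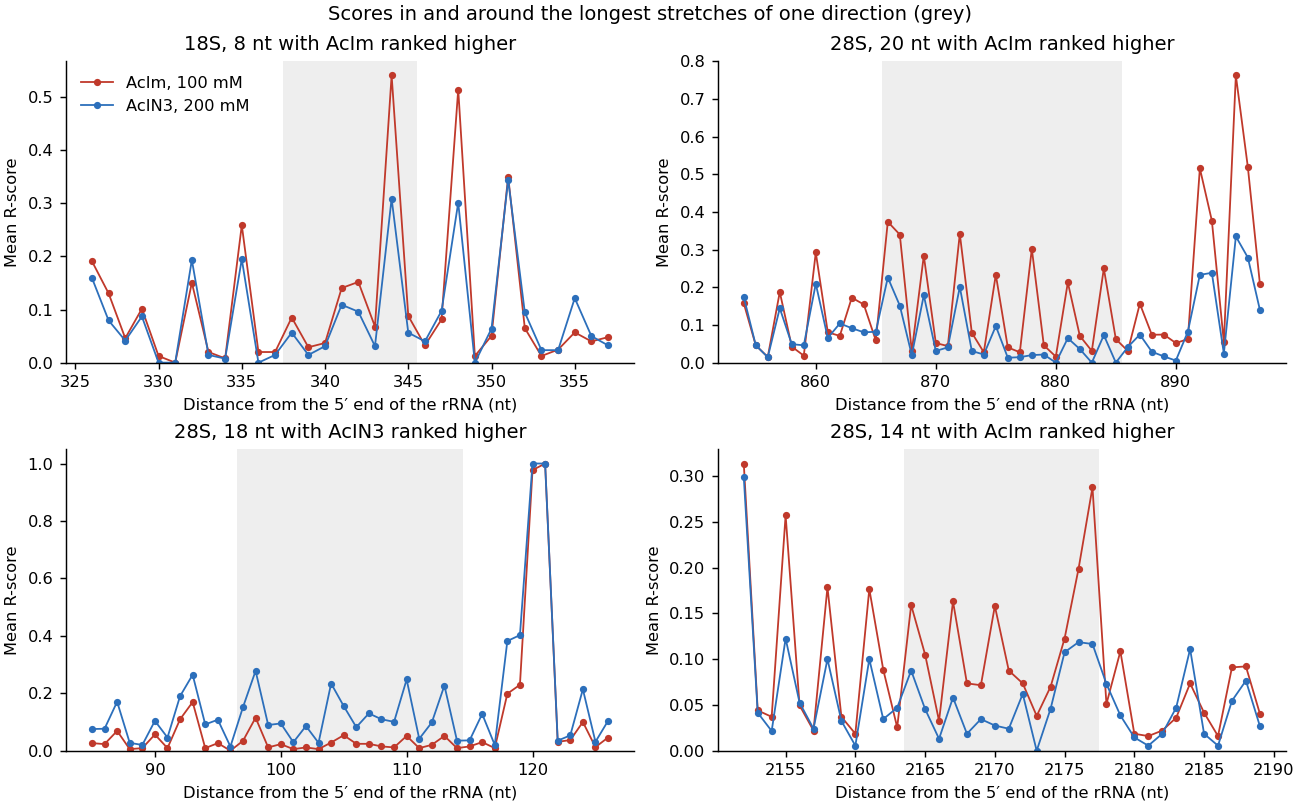
Mean R-score (y axis) of AcIm (red) and AcIN3 (blue) in and around 4 long stretches (grey) against the distance from the 5′ end (x axis, nt). In the 20-nt stretch of 28S the AcIm peaks, from 0.213 to 0.374, stand above those of AcIN3, and in the 18-nt stretch AcIN3 lies above AcIm at every nucleotide.

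The highly reactive nucleotides were taken as the top 10% by score. They began at 0.3595 for AcIm and 0.4395 for AcIN3 in 18S, and at 0.3095 for AcIm and 0.369 for AcIN3 in 28S. Both reagents had 145 of the 183 in common in 18S, which is 7.91% of all nucleotides scored, and 375 of the 503 in 28S, which is 7.45%. No top nucleotide of 18S was discordant. In 28S, 23 of AcIm's top nucleotides stood at least 20 points lower with AcIN3, and 9 of AcIN3's stood that much lower with AcIm.

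The AcIm leads among the top nucleotides of 28S were widest at nt 2203 near ES15L (0.5405 for AcIm and 0 for AcIN3), nt 4863 of domain VI (0.348 and 0.0215) and nt 2262 (0.482 and 0.0825). They went on with nt 605 of ES7L (0.3995 and 0.1045), nt 3339 and nt 3577 of ES27L (0.3225 and 0.1095, and 0.5455 and 0.136), and nt 1054 and nt 1129 of ES7L (0.426 and 0.1275, and 0.399 and 0.127). All 8 lay in regions that hold an expansion segment. Of all scored nucleotides of 28S, 31.7% lie in the expansion regions and 21.1% in the regions of mixed kind. Nt 2203 was the only top nucleotide of either reagent that the other listed at 0. The next in order was nt 606 of ES7L (0.449 and 0.1365), beside nt 605.

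The AcIN3 leads were narrower and fell in the same regions. The widest was at nt 619 of ES7L (0.078 for AcIm and 0.690 for AcIN3), followed by nt 3463 (0.086 and 0.393) and nt 3017 (0.114 and 0.5815) of ES27L and nt 1228 of ES7L (0.107 and 0.432). The others were nt 3010, nt 3058 and nt 2906 of ES27L and nt 4804 of domain VI, with scores from 0.108 to 0.1185 for AcIm and from 0.391 to 0.421 for AcIN3. Nucleotides of opposite sign could be close neighbours, since nt 605 and nt 619 both lie in ES7L and nt 3445 (0.325 for AcIm and 0.122 for AcIN3) lies in ES27L, as nt 3463 does.

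In 18S the widest AcIm leads among top nucleotides were at nt 270 (0.5805 for AcIm and 0.294 for AcIN3), nt 762 of ES6S (0.395 and 0.2615) and nt 348 and nt 344 of the 5′ domain (0.5145 and 0.3015, and 0.541 and 0.309). Then came nt 1826 and nt 1823, which flank the decoding nucleotides (0.3825 and 0.293, and 0.461 and 0.3295), nt 149 and nt 525. AcIN3 led at nt 1348 (0.223 for AcIm and 0.750 for AcIN3) and nt 1335 (0.1865 and 0.445) of the head, nt 1152 and nt 1161 of the platform, nt 10, nt 1632, nt 678 and nt 1510. These 16 leads spanned only 7.91 to 17.3 rank points.

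Across all of 18S the nucleotides 30 or more points apart were few, and are named because of that. AcIm led at nt 19 of the 5′ domain (0.109 for AcIm and 0.0535 for AcIN3) and at nt 741 and nt 752 of ES6S (0.193 and 0.096, and 0.222 and 0.118). AcIN3 led at nt 113, nt 122 and nt 132 of the 5′ domain (0.028 and 0.153, 0.031 and 0.173, and 0.0245 and 0.1065).

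On a scale from 0 to 1, a plain mean of 2 replicates limits how far either can lie from it. If the scores are such means, the replicates of the reagents cannot overlap at a few nucleotides. In 18S this held at 0 nucleotides for AcIm over AcIN3 (0%) and at 1 for AcIN3 over AcIm (0.0546%), nt 1348. In 28S it held at 2 for AcIm (0.0397%) and at 6 for AcIN3 (0.119%). Those of AcIm were nt 2203 and nt 4851 of domain VI (1 for AcIm and 0.4655 for AcIN3). Those of AcIN3 were nt 619, nt 621 (0.4125 for AcIm and 0.962 for AcIN3) and nt 623 (0.307 and 0.815) of ES7L, nt 2227 near ES15L (0.2915 and 0.989), and nt 2892 (0.405 and 0.935) and nt 3014 (0.290 and 0.951) of ES27L. The bound compares scores at unequal doses and can be met only by a mean above 0.5. At nt 2203 AcIN3 was at 0 and at nt 4851 AcIm was at 1, values that may reflect coverage or a cap.

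The upper end of the scale was largely shared in 18S and less so in 28S. A score of 1 was reached with both reagents at 12 nucleotides of 18S, nt 103, 226, 360, 485, 541, 554, 1023, 1247, 1248, 1375, 1507 and 1767. With AcIm alone it was reached at 2 more, where AcIN3 scored 0.973 and 0.982, and with AcIN3 alone at 2 others, where AcIm scored 0.8795 and 0.969. In 28S both reached 1 at 20 nucleotides, nt 121, 620, 638, 1135, 1254, 1322, 1766, 1930, 2206, 2659, 2762, 2812, 3347, 3352, 3447, 3456, 3457, 3475, 4263 and 4881. AcIm reached it alone at 10 and AcIN3 alone at 14. At those 10 AcIN3 scored as low as 0.4655, and at these 14 AcIm scored as low as 0.558. All 14 nucleotides of 18S that AcIm listed at 0 were also at 0 with AcIN3, which had 60 such nucleotides. The other 46 were above 0 with AcIm, by at most 0.0245. In 28S, 38 were at 0 with AcIm and 69 with AcIN3, of which 12 coincided.

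Natural modifications of the bases can stop reverse transcriptase without any reagent, and the sites known for this stood at the top with both reagents. These are hypermodified nt 1248 of 18S near the P site (1 in both), N1-methyladenosine at nt 1322 of 28S (1 in both), and N3-methyluridine at nt 4530 of 28S in the peptidyl transferase centre (0.8515 for AcIm and 0.9235 for AcIN3). How much of these scores came from acylation was not tested. Other base-modified sites ranked lower. The highest of them, N7-methylguanosine at nt 1639 of 18S, scored 0.2715 with AcIm and 0.305 with AcIN3. Acetylated cytidine at nt 1337 of 18S scored 0.046 with AcIm and 0.141 with AcIN3, 24.1 points apart, inside the 5-nt stretch of the head described above. The 5-methylcytidine at nt 4447 of 28S was near 0 with both (0.0035 and 0), and that at nt 3782 scored 0.091 and 0.1495. The N6-methyladenosines scored 0.017 and 0.009 at nt 1832 of 18S, and 0.0655 and 0.1605 at nt 4220 of 28S.

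Ribose-methylated nucleotides lack the free 2′-hydroxyl that the reagents modify. The 41 listed sites of 18S had median ranks of 49.9 for AcIm and 49.5 for AcIN3, near the middle of the profile, and the 61 listed sites of 28S had 45.8 and 51.4. In 18S 3 sites were in the top 10% of either reagent, Um172 (0.4765 for AcIm and 0.6505 for AcIN3), Gm509 (0.374 and 0.3405) and Am668 (0.3085 and 0.4915). In 28S these were Am1323 (0.4635 and 0.369), Gm3744 (0.2395 and 0.4915), Gm4228 (0.366 and 0.477) and Gm4623 (0.3535 and 0.5145). Am1323 directly follows nt 1322. Taken by reagent, the top 10% held 2 of the 41 sites of 18S with AcIm and 2 with AcIN3. In 28S it held 3 of the 61 sites with each reagent. By definition the top holds 10% of all nucleotides, so the listed sites were not enriched in it. Discordant sites favoured AcIm at 0 of 41 in 18S and 1 of 61 in 28S (Gm1522), against 2.4% and 7.65% of all nucleotides. They favoured AcIN3 at 2 of 41 (Gm436 and Gm1490) and at 5 of 61 (Am2815, Um3925, Gm3944, Gm4392 and Cm4456), against 1.75% and 5.32%. The listed positions were not checked against a sequence.

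Of the 5 listed functional nucleotides of 18S, 1 favoured AcIm and 1 favoured AcIN3, against 2.4% and 1.75% over all of 18S. Both lie in the decoding centre. There nt 626, nt 1824 and nt 1825 inspect the pairing of codon and anticodon, a role known from their bacterial counterparts. Nt 1825 ranked at 37.8 with AcIm and 38.1 with AcIN3. Nt 1824 ranked at 72.9 with AcIm (score 0.166) and 47.7 with AcIN3 (0.1105), and nt 626 ranked at 44.8 with AcIm (0.067) and 65.9 with AcIN3 (0.1805). Nt 1824 and nt 626 were thus discordant in opposite directions. At the P site, where the peptide-bearing transfer RNA binds, nt 1639 ranked at 84.7 and 81.3 and nt 1701 at 52.2 and 51.9.

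In the peptidyl transferase centre, nt 4531 was highly reactive with both (0.6165 for AcIm and 0.6745 for AcIN3) and nt 4452 was nearly closed to both (0.0035 and 0.0055). Nt 4397 ranked at 45.1 with AcIm and 47.4 with AcIN3, and nt 4548 at 54.9 and 45.3. The A loop binds the tip of incoming transfer RNA. There nt 4498 scored 0.0125 with AcIm and 0.033 with AcIN3, and its neighbour nt 4499 scored 0.116 and 0.2655. Of the 6 listed nucleotides of 28S, 0 were discordant, against 7.65% favouring AcIm and 5.32% favouring AcIN3 over all of 28S, so a list of this size would hold few at those shares.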

How the data were processed

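Reverse transcription stops on 18S and 28S rRNA of HEK293 cells were the measurement. Per the file headers, the authors averaged the R-score of each nucleotide over the replicates of a reagent before deposit, and the deposited values are these mean scores. The submitters' processing notes name Bowtie2 and GRCh38, without versions. Not given in the sources used here are the formula behind it, any subtraction of DMSO signal and any depth filter. Depth is unknown, so a score of 0 may mean little signal or little coverage, and a score of 1 may be capped.

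Scores were turned into percentile ranks separately for each reagent on each rRNA, tied scores sharing their mean rank. The top 10% was taken by score, with ties ordered by position. Nucleotides 20 or more points apart were called discordant, and stretches were consecutive nucleotides at least 10 points apart in 1 direction. The regions, 6 in 18S and 10 in 28S, and the lists of modified and functional nucleotides came from general knowledge. Members, regions and lists were chosen with earlier results of these data known. Named nucleotides were, per rRNA and direction, the 8 widest leads among the top 10% and the next in order, those separated by the replicate bound, those at 0 in one reagent and in the top of the other, those at 1 in both (which include the 8 with the highest lower rank), the functional and base-modified lists, ribose-methylated sites in a top 10%, and the longest stretches. Those named beyond this rule (discordant ribose-methylated sites, 50-nt windows, 18S nucleotides 30 points apart, neighbours of named ones and the saturated groups in the closing section) were chosen after their values were seen.

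Alternatives were other limits, smoothing, scaled scores and subsets of nucleotides. The ranking step was run on copies of the AcIm scores with planted rank differences wider than the limit and no replicate noise. That run checks the calculation only and says nothing about error in the discordant calls. The software was Python 3.11.15 with scipy 1.17.1, pandas 2.3.3 and numpy 2.4.6, and figures were drawn with matplotlib 3.10.9.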

Additional observations from a re-analysis of the deposited data

How the results depend on the processing

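No paired analysis was possible because the replicate values behind the means were not analysed here, and no replicate could be left out for the same reason. Of 58 alternative values, 37 moved by less than the tolerance. The tolerance was 1.5 times for a count, the 95% binomial interval for a share and the 95% Fisher interval for a correlation. Both intervals treat nucleotides as independent, which they are not. They served only as a yardstick for movement and do not measure replicate error. Spearman's correlation was 0.949 in 18S, and 0.940 as Pearson's r, 0.937 on log2 scores, 0.914 with 5-nt means and 0.943 without scores of 0 or 1. In 28S it was 0.881, and 0.897, 0.874 and 0.842 under the first 3 of these. The shared top was 70.3% in 18S at the top 5%, against 79.2%, and 78.3% in 28S at the top 20%, against 74.6%. Discordant nucleotides favouring AcIm and AcIN3 numbered 222 and 214 in 18S and 906 and 985 in 28S at 10 points, so that in 28S AcIN3 became the larger group. At 30 points they numbered 3 and 3, and 163 and 65. With 5-nt means they numbered 93 and 88 in 18S. By scaled scores AcIm led at 10 nucleotides in 18S and 199 in 28S, and AcIN3 at 30 and 334, so that AcIN3 became the larger group in both. The cause was not tested. The share favouring AcIm stayed higher in expansion segments than in the core of 28S under every alternative, from 7.01% against 0.379% at 30 points to 33.9% against 7.74% at 10 points. It was 12.8% against 1.64% without stretches of 5 nt or more, a setting added after the data were seen. With ranks within regions it was 9.01% against 3.11%. The share favouring AcIN3 was then 8.76% against 3.16%, so the tilt toward AcIm was largely lost. In ES6S the share favouring AcIm was 2.38%, against 2.28% in the 18S core, with ranks within regions. With unknown depth, single low scores cannot be ordered with confidence.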

Other observations

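Of the 14 nucleotides of 28S at 1 with AcIN3 alone, 8 lie in ES7L, near ES15L or in ES27L close to others of the same kind. The other 6 (nt 120, 467, 1958, 2348, 3453 and 4655) have no other of the same kind close by. Of these, nt 120 adjoins nt 121, and nt 3453 lies just before nt 3456 and nt 3457, all 3 at 1 in both reagents. This split was made after the values were seen, and whether the 14 cluster was not tested. In ES7L, nt 624, nt 625 and nt 626 were at 0.558, 0.816 and 0.6355 with AcIm and at 1 with AcIN3, directly after nt 621 and nt 623, where the replicate bound separated the reagents, and nt 620 was at 1 in both. Near ES15L, nt 2211, nt 2224 and nt 2230 were at 0.6085, 0.7325 and 0.778 with AcIm and at 1 with AcIN3. In ES27L, nt 3008 and nt 3009 were at 0.5925 and 0.9165 with AcIm and at 1 with AcIN3, close to nt 3010, nt 3014 and nt 3017 named above. The ranks of these 8 differed by at most 3.43 points, since they are near the top with both reagents.

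In the peptidyl transferase part of domain V, the widest differences were at nt 4455 (0.0055 for AcIm and 0.1605 for AcIN3) and nt 4461 (0 and 0.153), both 65.0 points apart. The ribose-methylated Cm4456 (0.0115 and 0.0625) lies between them. At nt 4451 to 4500, 10 of 50 nucleotides favoured AcIN3 and 0 favoured AcIm, against 5.32% and 7.65% over all of 28S. This window was picked after its values were seen. It was not the only one of its kind, since nt 101 to 150 of domain I held 11 favouring AcIN3. The position in domain VI with the widest difference was nt 4856 (0.222 for AcIm and 0 for AcIN3).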
